A study of Marchantia polymorpha and Klebsormidium nitens with 56 samples.

Results

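The 79 genes described here were at or under 25% of their transcript level without heat after 1 h of heat in the female wild-type accession BC3 of the liverwort *Marchantia polymorpha*, and still so after 5 h. They were selected from the 19755 named rows of a table of read counts, of which 113 rows of the male chromosome were set aside. Counts were scaled to a common library total (CPM, reads per 1000000 reads), averaged over the BC3 libraries of a group and compared after adding 0.5. A row was kept when its BC3 control mean reached 3 CPM, which 8263 rows did, and when the ratio of heat to control was 0.25 or less at both times. The BC3 values therefore chose these genes and are given as a description with no test. The libraries of the accessions Tak-2 and Tak-1 were not used in the choice, and the same genes were followed there.

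RNA was sequenced from whole gemmalings, the young plants that grow from the vegetative propagules of a liverwort, at an age of 7 days. All accessions were grown at 22 °C under continuous light, and heat was 37 °C for 1 h or 5 h, with plants at 0 h as the control. Tak-2 and BC3 are female wild types and Tak-1 is a male wild type, so no group carried a mutation or a transgene. Each of the 9 combinations of accession and time had 2 libraries, which made 18 libraries of 15129192 to 21491656 reads.

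Liverworts are haploid for most of their life cycle, and a male plant carries a V chromosome where a female carries a U chromosome. Heat makes plants transcribe genes of heat shock proteins through heat shock transcription factors, and many transcripts needed for growth become scarcer at the same time. A transcript can become scarcer because less of it is made or because it is degraded faster, and a count of reads at one time does not separate these. In whole plants, fewer cells of a type and less RNA per cell likewise cannot be told apart. The deposited identifiers are numbers of genome scaffolds and of genes along them, and no table given here pairs them with gene names, products or sequences. The genes are therefore described by their levels and changes, with identifiers for a few of them, and no function is given for any of them.

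Reads of the male-chromosome rows went against the labels of 2 control libraries. The library labelled Tak-2 control replicate 1 held 16838 such reads, while Tak-2 control replicate 2 held 17 and the heated Tak-2 libraries held 7 to 19. The library labelled Tak-1 control replicate 2 held 23 such reads, while Tak-1 control replicate 1 held 7158 and the heated Tak-1 libraries held 7244 to 13907. The BC3 libraries held 6 to 20. Across all genes tested, the library labelled Tak-1 control replicate 2 had a Pearson correlation of log2 CPM of 0.989 with Tak-2 control replicate 2 and of 0.982 with Tak-1 control replicate 1, while these last 2 correlated at 0.979. The library labelled Tak-2 control replicate 1 had one of 0.977 with Tak-1 control replicate 1 and of 0.960 with Tak-2 control replicate 2. Labels were kept as deposited, and counts that rest on these libraries are also given without both of them, which are called the doubtful libraries.

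In the heated libraries the 79 genes together held a small part of the reads they held without heat. Their summed level in Tak-2 was 7929 ± 354 CPM in controls, 1338 ± 43.6 CPM at 1 h and 911 ± 15.02 CPM at 5 h (SD, n = 2 each). In Tak-1 it was 8089 ± 47.2 CPM in controls, 1485 ± 12.3 CPM at 1 h and 1374 ± 20.5 CPM at 5 h (SD, n = 2 each). In BC3 it was 8332 ± 115 CPM in controls, 1379 ± 8.24 CPM at 1 h and 1039 ± 5.41 CPM at 5 h (SD, n = 2 each). No heated library overlapped with a control library, since the highest heated sum was 1494 CPM and the lowest control sum was 7678 CPM. At 1 h the sum stood at 16.9% of the control sum in Tak-2, 18.4% in Tak-1 and 16.6% in BC3, and at 5 h at 11.49% in Tak-2, 16.98% in Tak-1 and 12.5% in BC3. The genes took 0.768% to 0.841% of all reads in control libraries, 0.131% to 0.149% at 1 h and 0.0901% to 0.139% at 5 h. These percentages, and the parts of control levels given below, rest on library totals. The scaling factors of the tests (TMM) were 1.12 to 1.20 in control libraries and 0.854 to 0.983 in heated ones. Library totals therefore show deeper falls than the log2 changes of the tests.

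**Figure D1:**
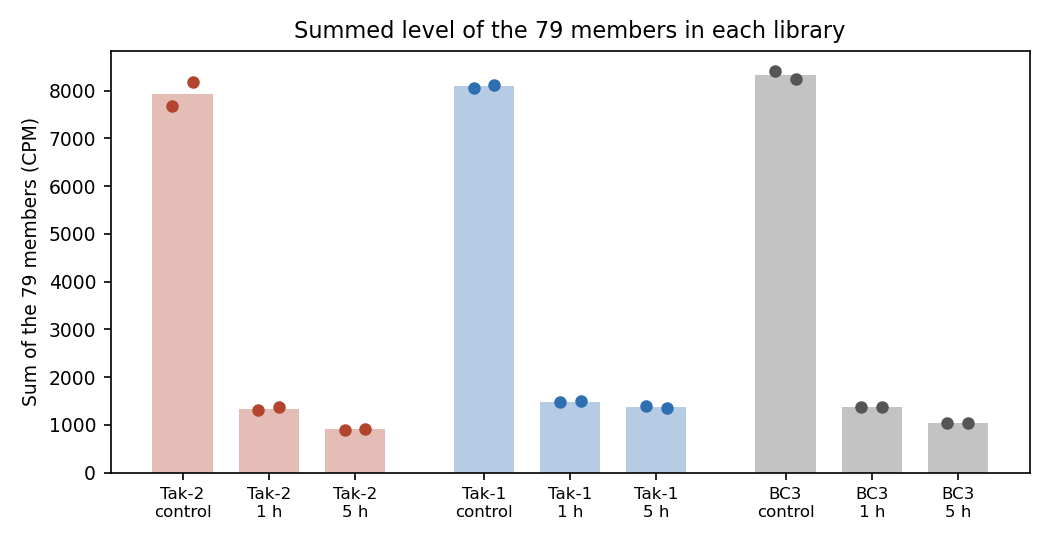
Summed level in CPM of the 79 genes (vertical axis) in each library (points) and its mean (bars), for the control, 1 h and 5 h groups of Tak-2, Tak-1 and BC3. All heated libraries lie at or below 1494 CPM and all control libraries at or above 7678 CPM, with the lowest sums in Tak-2 at 5 h.

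The median gene had 34.9 CPM in Tak-2 controls, 5.53 CPM at 1 h and 2.81 CPM at 5 h. In Tak-1 the median gene had 30.2, 6.18 and 4.61 CPM at the same times, and in BC3 it had 38.6, 5.03 and 3.21 CPM. Levels without heat spanned a wide range, from 3.29 to 1084 CPM in BC3 controls. CPM is not corrected for transcript length, so these values order the genes by reads and not by molecules. The part of the control level that remained at 1 h had a median over the genes of 16.1% in Tak-2 and 21.1% in Tak-1, and at 5 h of 10.2% in Tak-2 and 18.9% in Tak-1. In BC3 the corresponding medians were 16.3% at 1 h and 12.9% at 5 h. Of the 79 genes, 66 were at or under 25% of their control mean in Tak-2 at 1 h and 66 at 5 h, while in Tak-1 these counts were 51 and 53. At most 4 genes kept more than 50% of their control level in any of these groups, since 77, 77, 75 and 77 were at or under it in Tak-2 at 1 h, Tak-2 at 5 h, Tak-1 at 1 h and Tak-1 at 5 h. Without the 2 libraries that went against their labels, 65 and 66 genes were at or under 25% in Tak-2 at 1 h and 5 h and 53 and 53 in Tak-1.

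Most of the 79 genes fell in both accessions that had not been used to choose them. In Tak-2, 76 genes were lower at 1 h and 75 at 5 h than in controls (edgeR quasi-likelihood F test over 10832 genes, Benjamini-Hochberg adjusted p below 0.05). Of all genes tested, 29.4% were lower in Tak-2 at 1 h and 35.2% at 5 h. In Tak-1, 73 genes were lower at 1 h and 75 at 5 h, against 29.4% and 34.9% of all genes tested. Higher with heat were 29.4% of all genes tested in Tak-2 at 1 h, 36.2% in Tak-2 at 5 h, 29.9% in Tak-1 at 1 h and 36.3% in Tak-1 at 5 h. None of the 79 was higher in any of the 4 comparisons, also at an unadjusted p below 0.05 and with DESeq2, and 1 was higher in Tak-1 at 1 h when genes with few counts were not filtered out. The median log2 change of the 79 genes was -2.33 at 1 h and -2.85 at 5 h in Tak-2 and -2.04 at 1 h and -2.13 at 5 h in Tak-1, while the median over all genes tested lay within 0.02 of 0 in each comparison. At least 4-fold lower were 52 genes in Tak-2 at 1 h, 61 in Tak-2 at 5 h, 43 in Tak-1 at 1 h and 43 in Tak-1 at 5 h. For counts by size of fall, here and below, the share of all genes tested is not given, so they are a description. Without the 2 libraries whose reads went against their labels, the counts of lower genes were 73 and 74 in Tak-2 at 1 h and 5 h and 73 and 76 in Tak-1, and those of genes at least 4-fold lower were 52 and 56 in Tak-2 and 40 and 45 in Tak-1.

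Across the 4 comparisons, 70 genes were lower in all of them, 5 in 3, 2 in 2 and 2 in none, where both times of an accession share its controls. Of all genes tested, 14.6% were lower in all 4. Of the 70, 69 were also lower in all 4 comparisons without the pair of libraries that went against their labels. At least 4-fold lower in all 4 comparisons were 27 genes, and 1 was at least 16-fold lower in all 4, against 30 and 1 without that pair. The 9 genes not lower in all 4 comparisons had BC3 control means of 3.65 to 39.0 CPM with a median of 7.48 CPM, whereas the 70 that were had a median of 41.2 CPM. Split by BC3 control level into 26 genes of 67.0 to 1084 CPM, 27 of 20.1 to 63.1 CPM and 26 of 3.29 to 19.8 CPM, the counts lower in Tak-2 at 5 h were 26, 27 and 22, and those in Tak-1 at 1 h were 26, 26 and 21. Without both libraries they were 26, 27 and 21 in Tak-2 and 26, 26 and 21 in Tak-1. The BC3 control level is a value the choice of genes used, so these counts are a description.

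**Figure D2:**
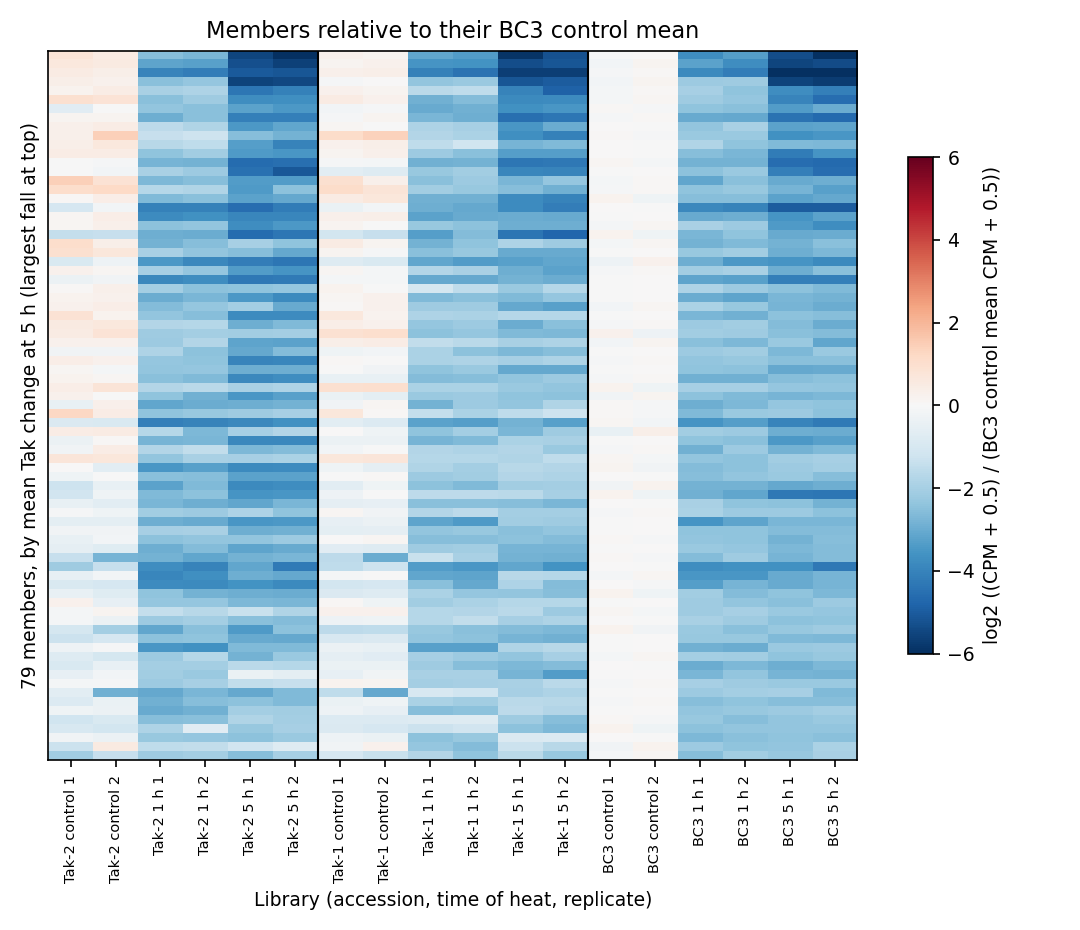
Level of each of the 79 genes (rows, ordered by the mean change of Tak-2 and Tak-1 at 5 h) in each library (columns), as log2 of CPM + 0.5 relative to the BC3 control mean + 0.5. Heated columns are blue in all 3 accessions and most control values are near 0, and the columns at 5 h hold both the deepest values, at the top, and rows paler than at 1 h, lower down.

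The deepest mean changes over the 4 comparisons belonged to Mapoly0214s0010.1 and Mapoly0002s0043.1, which both averaged -5.19 on the log2 scale. Mapoly0214s0010.1 had 94.2 and 84.3 CPM in Tak-2 controls, 3.85 and 3.31 CPM at 1 h and 1.54 and 1.40 CPM at 5 h. Its Tak-1 libraries held 83.3 and 86.3 CPM in controls, 3.57 and 2.64 CPM at 1 h and 0.840 and 0.838 CPM at 5 h. Most of its fall had thus taken place by 1 h, and no library of one time overlapped with one of another time within an accession. Its log2 change against control at 1 h was -4.35 ± 0.14 in Tak-2 and -4.56 ± 0.14 in Tak-1 (SE, adjusted p = 5.97e-13 and 4.33e-13). At 5 h it was -5.50 ± 0.16 in Tak-2 and -6.37 ± 0.17 in Tak-1 (adjusted p = 9.54e-14 and 6.03e-14). The difference between the accessions at 5 h was 0.87 with an adjusted p of 0.0289, and with DESeq2 it was 0.88 with an adjusted p of 0.0524, which no longer passed. Leaving out 1 library at a time gave 0.80 to 0.97 with an adjusted p of up to 0.108. In BC3 it had 63.1 and 70.9 CPM in controls, 4.27 and 3.26 CPM at 1 h and 0.397 and 0.215 CPM at 5 h.

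Mapoly0002s0043.1 had 52.0 and 49.1 CPM in Tak-2 controls, 3.37 and 3.07 CPM at 1 h and 0.384 and 0.207 CPM at 5 h. Tak-1 had 38.3 and 40.2 CPM in controls, 2.40 and 2.34 CPM at 1 h and 0.360 and 0.465 CPM at 5 h. The Tak-2 values at 5 h stand for 7 and 4 reads, which are few. Its log2 change at 5 h against control was -6.97 ± 0.23 in Tak-2 and -6.25 ± 0.22 in Tak-1 (SE, adjusted p = 5.42e-13 and 1.34e-12).

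The gene with the most reads without heat had 853 and 930 CPM in Tak-2 controls, 73.0 and 82.6 CPM at 1 h and 54.6 and 56.4 CPM at 5 h. In Tak-1 it had 1011 and 991 CPM in controls, 128 and 127 CPM at 1 h and 152 and 140 CPM at 5 h. It kept falling in Tak-2 between 1 h and 5 h, with a log2 change of -0.35 ± 0.07 (SE, adjusted p = 5.70e-04), and rose in Tak-1, with 0.26 ± 0.07 (SE, adjusted p = 3.66e-03). The gene with rank 2 by reads had 353 and 428 CPM in Tak-2 controls, 159 and 162 CPM at 1 h and 106 and 104 CPM at 5 h. Its Tak-1 libraries held 447 and 477 CPM in controls, 168 and 155 CPM at 1 h and 125 and 117 CPM at 5 h. Its BC3 controls, at 852 and 871 CPM, stood above all of these, while its heated BC3 libraries held 180 and 177 CPM at 1 h and 138 and 133 CPM at 5 h. The gene with rank 3 by reads showed nearly the same course in all accessions. It had 438 and 421 CPM in Tak-2 controls, 64.4 and 61.6 CPM at 1 h and 17.7 and 19.0 CPM at 5 h. Tak-1 had 422 and 420 CPM in controls, 61.2 and 61.6 CPM at 1 h and 22.0 and 22.6 CPM at 5 h. Its log2 change at 5 h was -4.12 ± 0.08 in Tak-2 and -3.96 ± 0.08 in Tak-1 (SE, adjusted p = 1.02e-15 and 2.09e-15).

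At the other end, Mapoly0048s0002.1 and Mapoly0075s0072.1 had the highest means over the 4 changes, -0.52 and -0.76 on the log2 scale. Mapoly0048s0002.1 had 19.8 and 17.98 CPM in Tak-2 controls, 10.5 and 24.1 CPM at 1 h and 7.63 and 9.51 CPM at 5 h. In Tak-1 it had 21.3 and 18.9 CPM in controls, 15.8 and 17.1 CPM at 1 h and 6.66 and 5.68 CPM at 5 h. At 1 h it did not pass the test in either accession, with log2 changes of 0.16 ± 0.26 in Tak-2 and -0.08 ± 0.26 in Tak-1 (SE, adjusted p = 0.612 and 0.795). The Tak-2 value rests on the 2 replicates, which lay on either side of the controls, and without replicate 2 at 1 h it was -0.56 with an adjusted p of 0.0303. At 5 h it was lower in both accessions, with log2 changes of -0.71 ± 0.27 in Tak-2 and -1.43 ± 0.28 in Tak-1 (SE, adjusted p = 0.0282 and 2.87e-04). The Tak-2 value did not pass without Tak-2 replicate 1 at 5 h, at -0.57 with an adjusted p of 0.159, or without the library labelled Tak-2 control replicate 1, at -0.63 with an adjusted p of 0.0670. The BC3 libraries that chose it held 45.2 and 32.9 CPM in controls, above all Tak controls, 6.59 and 7.26 CPM at 1 h and 7.07 and 7.14 CPM at 5 h. Mapoly0075s0072.1 had 1.63 CPM or less in every Tak library and passed the test in none of the 4 comparisons.

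Between 1 h and 5 h of heat the genes did not move as a block. In Tak-2, 39 were lower and 9 higher at 5 h than at 1 h, and 31 did not pass the test, with a median log2 change of -0.43. Of all genes tested, 28.3% were lower and 26.5% higher in that comparison. In Tak-1, 31 genes were lower, 13 were higher and 35 did not pass, with a median of -0.26, where 26.9% of all genes tested were lower and 26.9% higher. Both accessions had 23 of the genes lower and 4 higher, where 20.5% of all genes tested were lower in both and 19.3% higher in both. A further 5 were lower in Tak-2 and higher in Tak-1, and 2 were lower in Tak-1 and higher in Tak-2, against 0.932% and 0.434% of all genes tested. These comparisons use no control library, so the libraries that went against their labels enter them only through the filter, the scaling, the shared estimate of spread and the adjustment. Without them the counts were 41 lower and 11 higher in Tak-2 and 32 lower and 16 higher in Tak-1.

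The 23 genes lower at 5 h than at 1 h in both accessions had a median log2 change between these times of -1.60 in Tak-2 and -1.61 in Tak-1. Against control, their median at 5 h was -4.12 in Tak-2 and -3.96 in Tak-1. Their highest change against control at 1 h was 0.16 in Tak-2 and -0.08 in Tak-1, so not all had fallen by then. The 4 that were higher at 5 h than at 1 h in both had a median log2 change of 1.01 in Tak-2 and 1.24 in Tak-1 between these times. They were still at a median of -1.70 in Tak-2 and -1.21 in Tak-1 against control at 5 h, with the member nearest to its control at -0.94 and -0.98. The 4 had BC3 control means of 38.7 to 164 CPM. In BC3, the 5 h values of 54 of the 79 genes lay below the 1 h values. The sign was below 0 in all 3 accessions for 35 genes and above 0 in all 3 for 11. Over the 79 genes, the log2 change between 1 h and 5 h in Tak-2 had a Pearson r of 0.602 and a Spearman rho of 0.512 with that in Tak-1, and of 0.675 and 0.555 with that in BC3, while Tak-1 and BC3 had 0.740 and 0.737. These are descriptions over genes, which are not independent replicates, and the genes of an accession share the same libraries.

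**Figure D3:**
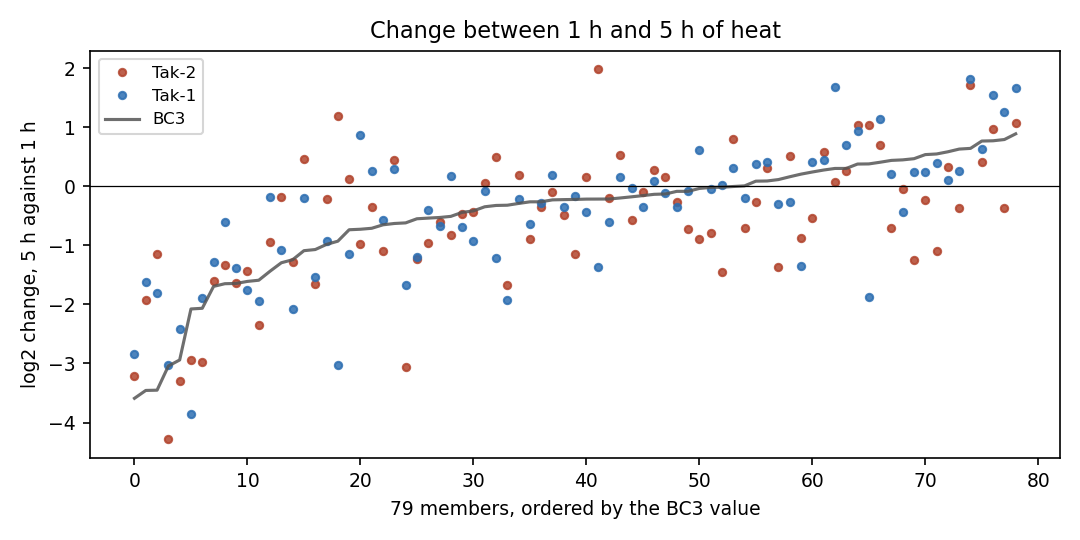
Log2 change at 5 h against 1 h of heat (vertical axis) for the 79 genes, ordered by the BC3 value (line), in Tak-2 and Tak-1 (points). Genes with the lowest BC3 values, at the left, have values well below 0 in both other accessions, and points scatter around 0 on the right, with 1 gene near 2 in Tak-2 alone.

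The steepest further fall in Tak-2 was that of Mapoly0004s0127.1, which had 72.1 and 60.5 CPM in Tak-2 controls, 6.79 and 6.01 CPM at 1 h and 0.439 and 0.155 CPM at 5 h. Its values at 5 h stand for 8 and 3 reads. The log2 change from 1 h to 5 h was -4.28 ± 0.37 in Tak-2 and -3.02 ± 0.36 in Tak-1 (SE, adjusted p = 1.62e-07 and 4.46e-06). With all libraries, the steepest in Tak-1 was that of Mapoly0123s0001.1, with 22.2 and 20.9 CPM in Tak-1 controls, 5.58 and 5.94 CPM at 1 h and 0.660 and 0.140 CPM at 5 h. In Tak-2 this gene had 21.2 and 25.1 CPM in controls, 4.33 and 4.75 CPM at 1 h and 0.439 and 0.620 CPM at 5 h. Its Tak-1 values at 5 h stand for 11 and 3 reads. The fall was found in both accessions, with log2 changes from 1 h to 5 h of -2.94 ± 0.34 in Tak-2 and -3.86 ± 0.35 in Tak-1 (SE, adjusted p = 3.12e-06 and 2.60e-07). The Tak-1 value was -5.24 without Tak-1 replicate 1 at 5 h and -3.03 without replicate 2, where Mapoly0004s0127.1 was the lower of these 2 genes at -3.96.

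The strongest rise between the times was that of Mapoly0086s0084.1 in Tak-2. It had 8.87 and 11.1 CPM in Tak-2 controls, 2.58 and 2.28 CPM at 1 h and 9.39 and 8.16 CPM at 5 h. Its Tak-1 libraries held 8.68 and 10.7 CPM in controls, 2.90 and 2.88 CPM at 1 h and 1.38 and 0.791 CPM at 5 h. The 5 h libraries of Tak-2 thus overlapped with their controls while those of Tak-1 lay below their own 1 h libraries, as did the BC3 values of 1.39 and 1.34 CPM at 5 h against 1.48 and 2.05 CPM at 1 h. From 1 h to 5 h its log2 change was 1.98 ± 0.22 in Tak-2 and -1.37 ± 0.27 in Tak-1 (SE, adjusted p = 2.04e-06 and 5.16e-04). The difference between these changes was 3.35 ± 0.35 (SE, adjusted p = 1.94e-05). In Tak-1 the strongest rise was that of Mapoly0011s0108.1, with a log2 change of 1.82 ± 0.70 (SE, adjusted p = 0.0393). It rests on 1 and 4 reads at 1 h and 10 and 9 reads at 5 h, and did not pass with DESeq2, where the adjusted p was 0.0536, or with the Tak-2 and Tak-1 libraries alone, where it was 0.0546. Without 1 library at a time it was 1.12 to 3.09, and it did not pass without Tak-1 replicate 1 at 1 h or without either Tak-1 replicate at 5 h, with adjusted p of 0.263, 0.151 and 0.0541.

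The heat response of the 79 genes was compared between Tak-2 and Tak-1 as the difference of their log2 changes against control. At 1 h it was lower in Tak-2, that is, more negative, for 13 genes and higher for 5, with 61 not passing. Over all genes tested it was lower for 11% and higher for 11%. At 5 h it was lower in Tak-2 for 29 genes and higher for 10, with 40 not passing, against 18.6% and 16.7% of all genes tested. The median difference over the 79 genes was -0.25 at 1 h and -0.43 at 5 h. Leaving out both libraries that went against their labels gave 15 lower and 3 higher at 1 h, and 28 lower and 10 higher at 5 h, of which 25 and 9 were also among the 29 and 10. Shares of all genes tested were smaller without both libraries, in each direction and at both times. Like the share of all genes tested, the count at 1 h depended on single libraries, control and heated. It was 8 in all without the library labelled Tak-1 control replicate 2, 28 without Tak-2 control replicate 2 and 10 without Tak-2 replicate 2 at 1 h, against 18 with all libraries.

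The change from 1 h to 5 h, which needs no control library, also differed between the accessions for part of the genes. It was lower in Tak-2 for 13 genes and higher for 3, against 7.00% and 4.52% of all genes tested. Leaving out both libraries that went against their labels gave more genes in each direction, among the 79 and among all genes tested. Of the 29 genes with a lower response in Tak-2 at 5 h, 28 were lower with heat in Tak-1 as well, so for these the difference was one of size and not of direction. Their median log2 change against control was -2.42 in Tak-2 and -1.96 in Tak-1 at 1 h, and -3.33 in Tak-2 and -1.61 in Tak-1 at 5 h. Between 1 h and 5 h their median was -0.71 in Tak-2 and 0.24 in Tak-1. For the 10 genes with a higher response in Tak-2, the median log2 change at 5 h was -1.81 in Tak-2 and -2.97 in Tak-1. Of these 10, 9 were lower with heat in Tak-2. Both lists were chosen by the response at 5 h, so the medians of the 29 and the 10 are a description and no test.

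**Figure D4:**
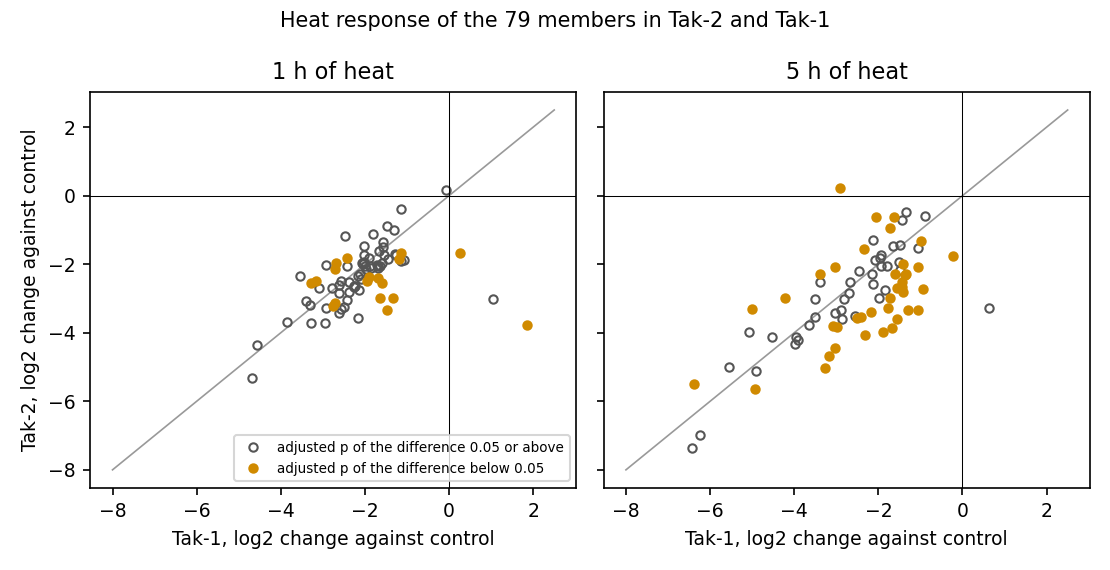
Log2 change against control of the 79 genes in Tak-2 (vertical axis) and Tak-1 (horizontal axis) at 1 h and 5 h, with filled points where the difference had an adjusted p below 0.05 and a line of equal change. At 5 h, 29 filled points lie below the line and 10 above it.

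Among the genes that passed the test, the most negative difference at 5 h belonged to Mapoly0116s0046.1. It had 40.6 and 26.04 CPM in Tak-2 controls, 3.13 and 3.79 CPM at 1 h and 2.42 and 2.48 CPM at 5 h. Tak-1 had 33.0 and 27.4 CPM in controls, 11.3 and 9.47 CPM at 1 h and 12.3 and 11.45 CPM at 5 h. Controls of the accessions overlapped, and every heated Tak-2 library lay below every heated Tak-1 library, with BC3 in between within each time, at 6.23 and 6.80 CPM at 1 h and 8.39 and 9.50 CPM at 5 h. Its difference in response was -1.64 ± 0.29 at 1 h and -2.27 ± 0.30 at 5 h (SE, adjusted p = 1.86e-03 and 4.43e-05). Without both doubtful libraries it was -1.18 at 1 h and -1.79 at 5 h, with adjusted p of 2.60e-03 and 7.58e-06. Of the genes that passed, the most positive difference at 5 h was that of Mapoly0086s0084.1, at 3.14 ± 0.31 (SE, adjusted p = 4.83e-06), and 2.83 without both doubtful libraries.

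Among the genes that passed the test at 1 h, the most positive difference belonged to Mapoly0027s0167.1, the gene with rank 4 by reads. It had 456 and 584 CPM in Tak-2 controls, 68.8 and 75.5 CPM at 1 h and 46.3 and 51.3 CPM at 5 h. In Tak-1 it had 614 and 706 CPM in controls, 58.6 and 59.1 CPM at 1 h and 31.7 and 27.05 CPM at 5 h. The heated Tak-2 libraries lay above the heated Tak-1 libraries of the same time, while the difference without heat did not pass the test, at -0.43 with an adjusted p of 0.0504, and at -0.14 with an adjusted p of 0.588 without both doubtful libraries. The difference in response was 0.73 ± 0.21 at 1 h and 1.23 ± 0.21 at 5 h (SE, adjusted p = 0.0218 and 4.99e-04). Without both doubtful libraries the value at 1 h was 0.43 with an adjusted p of 0.0997, so the call at 1 h rests on them, and the value at 5 h was 0.95 with an adjusted p of 2.37e-04.

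The most negative difference at 1 h that passed the test, -5.62 ± 1.81 (SE, adjusted p = 0.0380), was that of Mapoly0228s0003.1, and it rests on the libraries that went against their labels. Reads of this gene numbered 35 in the library labelled Tak-2 control replicate 1 and 1 in Tak-2 control replicate 2, then 0 and 2 at 1 h and 0 and 3 at 5 h in Tak-2. In Tak-1 they numbered 16 in control replicate 1 and 0 in the library labelled Tak-1 control replicate 2, then 29 and 22 at 1 h and 9 and 14 at 5 h. The Tak libraries with 9 or more reads of this gene were the same as those with 7158 or more reads of the male chromosome. The 4 BC3 libraries with heat held 3 to 11 reads and the BC3 controls 55 and 68, although BC3 held almost no reads of the male chromosome. Without both doubtful libraries the difference at 1 h was -0.70 with an adjusted p of 0.892. The neighbouring identifier on the same scaffold is also one of the 79 genes, and passed the test in none of the 4 heat comparisons. This neighbour had 1.23 CPM or less in every Tak library. Its control replicates 1 and 2 held 1.16 and 0.128 CPM in Tak-2 and 0.991 and 0.0582 CPM in Tak-1, as labelled. At such levels the tests say little about its response.

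**Figure D5:**
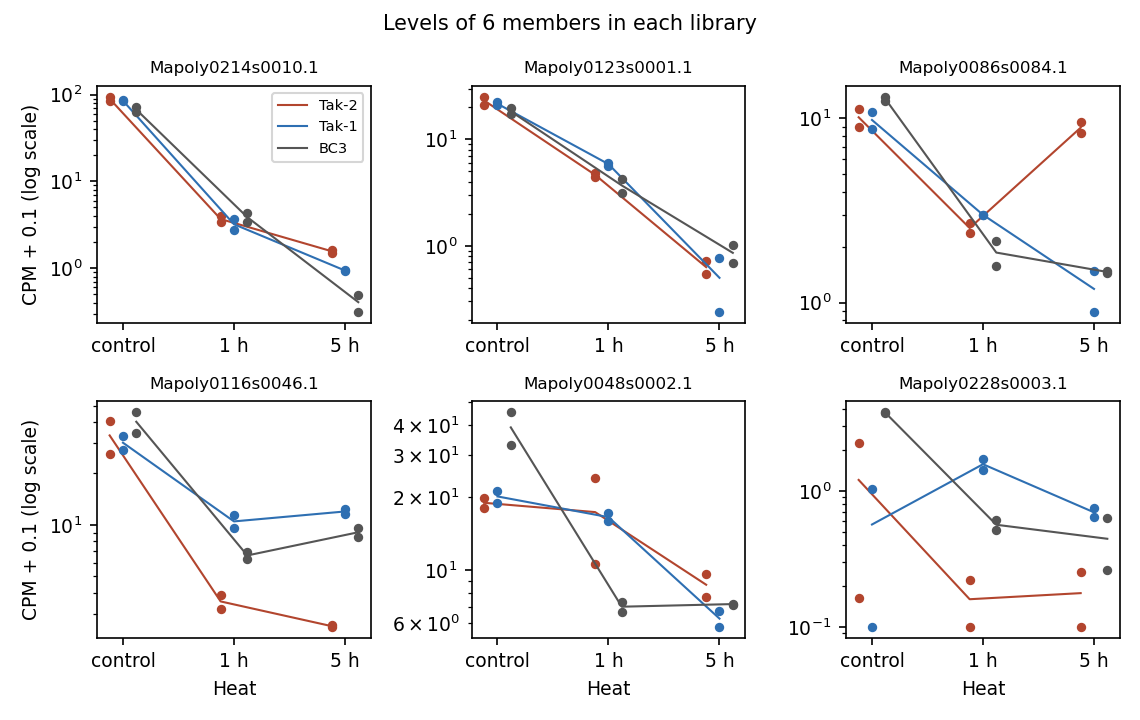
Level of 6 of the genes as CPM + 0.1 on a log axis (vertical) against time of heat (horizontal), with a point for each library and a line through the group means, in Tak-2, Tak-1 and BC3. Mapoly0214s0010.1 and Mapoly0123s0001.1 fall at both times in all accessions, Mapoly0086s0084.1 is back near its control level in Tak-2 alone at 5 h, and Mapoly0228s0003.1 has control points far apart within Tak-2 and within Tak-1.

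Without heat, the genes were called different between the accessions about as often as all genes tested. In Tak-2 controls 7 of the 79 genes were lower and 6 higher than in Tak-1 controls, and 66 did not pass. Of all genes tested, 7.46% were lower and 8.25% higher. As labelled, both control groups mix a library with many and a library with few reads of the male chromosome. The comparison therefore cannot show how far the accessions differ at these genes. The count of genes that differed also depended on single control libraries, as did the share of all genes tested. The log2 difference over the 79 genes ran from -0.85 to 1.16, with a median of 0.00.

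The rule was also applied to each of the other accessions in place of BC3. It gave 162 genes in Tak-2, of which 54 were among the 79, which is 33.3% of that list and 68.4% of the 79. In Tak-1 it gave 138 genes, of which 33 were shared, which is 23.9% of that list and 41.8% of the 79. Both accessions kept 52 genes by the rule, of which 31 were shared, which is 59.6% of the 52 and 39.2% of the 79. Without both doubtful libraries the rule gave 127 genes in Tak-2, 144 in Tak-1 and 67 in both, of which 56, 34 and 33 were among the 79. Over the 79 genes, the log2 changes against control in Tak-2 had a Pearson r with those in Tak-1 of 0.467 at 1 h and 0.696 at 5 h and a Spearman rho of 0.580 and 0.633, given as a description over genes.

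In BC3, 97 genes met the limit at 1 h, of which 79 still met it at 5 h and 18 did not, and a further 317 met it at 5 h alone. The 18 genes that had met it at 1 h alone were lower against control in Tak-2 for 18 at 1 h and 16 at 5 h, and in Tak-1 for 16 and 10. Without both doubtful libraries these counts were 18 and 14 in Tak-2 and 16 and 10 in Tak-1. From 1 h to 5 h, 12 of the 18 were higher and 1 lower in Tak-2, and 13 were higher and 0 lower in Tak-1. Among the 79, those counts were 9 higher and 39 lower in Tak-2 and 13 higher and 31 lower in Tak-1. The difference between the lists was not tested. The 317 genes had median log2 changes at 1 h of -1.02 in Tak-2 and -0.95 in Tak-1, and at 5 h of -2.08 in Tak-2 and -1.91 in Tak-1.

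The limits cut through a continuous range of values. The ratios at 1 h nearest to the limit of 0.25 were 0.249994 and 0.2496 inside it and 0.2517 and 0.2522 outside it. At 5 h they were 0.246 and 0.233 inside and 0.2502 and 0.257 outside. The lowest BC3 control means that were kept were 3.29 and 3.51 CPM, and the only gene that met both ratios below the minimum had 2.92 CPM.

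The 79 genes came from 79 loci on 63 scaffolds, so no locus was counted more than once. In 3 places the numbers along a scaffold were consecutive, and these held 7 of the genes. The longest run had 3 genes on scaffold 27, with Mapoly0027s0167.1 in the middle, and their ranks by reads were 4, 10 and 14. The gene before Mapoly0027s0167.1 had 258 and 331 CPM in Tak-2 controls, 58.0 and 64.3 CPM at 1 h and 51.1 and 53.3 CPM at 5 h. The gene after it had 362 and 446 CPM in Tak-2 controls, 57.0 and 61.1 CPM at 1 h and 60.1 and 62.3 CPM at 5 h. At 5 h the gene before, the middle gene and the gene after stood at 17.7%, 9.38% and 15.2% of their controls in Tak-2 and at 10.1%, 4.45% and 7.92% in Tak-1. Whether reads were shared among similar copies was not tested. A second pair joins Mapoly0214s0010.1 to the next number, which had 160 and 150 CPM in Tak-2 controls, 22.1 and 25.4 CPM at 1 h and 2.20 and 2.43 CPM at 5 h. That pair fell deeply in both members, at different speeds. Of the rows with the number before or after one of the genes, 81 were tested, and of these 31 were lower and 19 higher in Tak-2 at 1 h, 38 lower and 23 higher in Tak-2 at 5 h, 36 lower and 11 higher in Tak-1 at 1 h and 37 lower and 14 higher in Tak-1 at 5 h. All genes tested had 29.4% lower and 29.4% higher in Tak-2 at 1 h, 35.2% and 36.2% in Tak-2 at 5 h, 29.4% and 29.9% in Tak-1 at 1 h and 34.9% and 36.3% in Tak-1 at 5 h. The median log2 changes of the 81 in the same order were -0.20, -0.39, -0.27 and -0.30. Without both doubtful libraries 82 were tested, and 30, 37, 34 and 36 were lower and 16, 21, 13 and 14 higher.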

How the data were processed

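The deposited counts are reads per gene that the authors counted, whole numbers with no normalization, and STAR is named as a tool per the submitters' processing notes. Its version, the counting program, the genome build and the use of strand were not given in the sources used here. An unnamed last line, the sum of each column, was dropped, and columns were tied to libraries by their labels. The series' libraries of another liverwort experiment and of an alga were not used here, since no table given pairs their identifiers with these. Its libraries labelled as ChIP (chromatin immunoprecipitation) were not used either. CPM were computed from column sums without male-chromosome rows. These rows were not removed before the tests, so any that passed the filter are among the 10832 genes tested. Tests ran in R 4.3.3 with edgeR 4.0.16 (quasi-likelihood F test, TMM scaling, filterByExpr, a mean for each of the 9 groups), with adjustment over all 10832 genes tested, which hold 99.97% of the reads and all 79 genes described. Log2 changes are given with an SE equal to the change divided by the square root of F. The fit was tested on simulated counts. Alternatives were other scalings, filters, DESeq2 1.42.0, a replicate block, leaving out libraries and, added after the data were seen, leaving out both libraries that go against their labels, summing rows of a locus and the test of the change from 1 h to 5 h between accessions. The members, comparisons and lists were chosen with earlier results of these data known. Named genes are the extremes of each comparison, at most 2 identifiers in each direction, because identifiers have no names here. The genes with ranks 1 to 3 by reads and the neighbours in runs carry no identifier. The design text calls the replicates biological, and p-values measure the spread between 2 libraries a group. Replicate pairs differed beyond counting noise, with a chi-square per degree of freedom of 2.11 to 27.3, the highest in Tak-2 controls.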

Additional observations from a re-analysis of the deposited data

Results flagged for a closer look

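The difference in heat response between Tak-2 and Tak-1, tested as an interaction in edgeR with Benjamini-Hochberg adjustment, was past the threshold at 1 h for 13 genes with a lower and 5 with a higher response in Tak-2. At 5 h it was past the threshold for 29 genes with a lower and 10 with a higher response in Tak-2. The change from 1 h to 5 h was lower in Tak-2 for 13 genes and higher for 3. Over all genes tested, the response was lower in Tak-2 for 11% and higher for 11% at 1 h. At 5 h these shares were 18.6% and 16.7%, and for the change from 1 h to 5 h they were 7.00% and 4.52%. They were smaller at 1 h and 5 h and larger for the change when both doubtful libraries were left out. The shares at 1 h also moved when 1 library was left out. Without both doubtful libraries, 15 genes were lower and 3 higher at 1 h, 28 and 10 at 5 h, and 16 and 9 for the change. Leaving out 1 library at a time gave 8 to 28 genes with a different response at 1 h.

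Rows of the male chromosome held 16838 reads in the library labelled Tak-2 control replicate 1, where Tak-2 is female and the other Tak-2 libraries held 7 to 19. These rows were left out when the genes described were chosen, but they were not removed before the tests.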

How the results depend on the processing

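The counts of genes lower with heat moved little. Over all settings they were 72 to 77 in Tak-2 at 1 h, 72 to 75 in Tak-2 at 5 h, 73 to 74 in Tak-1 at 1 h and 72 to 76 in Tak-1 at 5 h. Leaving out 1 library at a time gave 37 to 51 genes changed between 1 h and 5 h in Tak-2 and 33 to 47 in Tak-1, 8 to 28 with a different response at 1 h, 32 to 43 at 5 h, 13 to 22 with a different change from 1 h to 5 h and 2 to 31 different without heat. Without a filter on low counts 29 genes had a different response at 1 h. In that setting the response was lower for 8.52% and higher for 8.17% of the 15432 genes tested. Without both libraries that go against their labels 7 genes differed without heat and 25 differed in the change from 1 h to 5 h. Shares of all genes tested also moved across these settings, for the response at 1 h, the change from 1 h to 5 h and the difference without heat. The cause was not tested.

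The number of genes chosen was 43 with a ratio limit of 0.2, 127 with 0.3 and 48 with CPM scaled by TMM factors, all 48 among the 79. It was 104 with no constant added and 57 with 1 added, and 75 to 81 when 1 BC3 library was left out. With library totals alone, the median of all genes shifted by -0.30 and -0.42 in Tak-2 at 1 h and 5 h and by -0.21 and -0.27 in Tak-1, and the share of lower among all genes past the threshold moved to 71.7% and 70.2% in Tak-2, against 50.1% and 49.3% with TMM, and to 66.2% and 63.9% in Tak-1, against 49.5% and 49.0%. For the response at 5 h it moved to 71.3%, against 52.7%, and without heat to 19.8%, against 47.5%. Among the 79, the response at 5 h was then lower in Tak-2 for 33 and higher for 8, against 27.0% and 10.8% of all genes tested. Without heat 3 were then lower and 7 higher, against 3.39% and 13.7%.

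Mapoly0228s0003.1 changed direction in Tak-2 without both doubtful libraries, to 0.18 at 1 h, 0.67 at 5 h and -3.76 without heat, and without Tak-2 control replicate 1 alone, to 0.18 and 0.68. Leaving out 1 library at a time gave it -7.05 to 0.18 at 1 h and -7.04 to 0.68 at 5 h. Mapoly0048s0002.1 in Tak-2 at 1 h was -0.56 without Tak-2 replicate 2 at 1 h and 0.65 without replicate 1. Of the values of named genes under other settings, 2860 kept direction and side of the threshold, 70 no longer passed it, 29 passed it only then and 6 reversed.

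With a replicate block, 76 and 74 genes were lower in Tak-2 at 1 h and 5 h and 73 and 75 in Tak-1, 47 and 44 changed from 1 h to 5 h in Tak-2 and Tak-1, 20 and 40 differed in response at 1 h and 5 h, 12 without heat and 16 in the change from 1 h to 5 h. Deviations of libraries with the same number correlated at -0.0663 to 0.577, with 1 of 36 pairs above 0.1. The value of 0.577 was that of Tak-2 controls with Tak-1 controls, the groups with the libraries that went against their labels. Within an accession the highest was 0.0166, so the numbers were not taken to pair the libraries. The comparisons planned for the other liverwort experiment were not run.

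At 5 h 17 to 20 of the genes had under 1 CPM in each library, which limits their largest fold changes.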
